A study of Mus musculus with 20 samples.

Results

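The mitotic cell cycle genes described here are 38 genes of entry into mitosis, chromosome segregation and cytokinesis. They were chosen by symbol, from what the genes are known to do, and not by a measured value. Earlier results of these data were known when they were chosen. All 38 were found among the 20188 genes of the tumor table and, by Ensembl identifier matched to symbol, among the 50667 Ensembl genes of the cell table, and all 38 had a mean of at least 0.1 in both, the minimum for testing. The samples were Mvt1 cells, a metastatic mouse mammary carcinoma line of FVB background derived from a tumor driven by Myc and Vegf transgenes, transduced with a scramble shRNA (scr) or with an shRNA against Rnaseh2c (sh4). Both groups thus carried a lentiviral shRNA, and in culture both were kept in 10 ug/ml puromycin to select for it. According to the paper, cells to be injected were plated beforehand in medium without selection. Primary mammary tumors were taken 30 days after orthotopic implantation of these cells into syngeneic FVB mice, as 3 scr and 3 sh4 tumors with 1 of each from each of 3 experiments. The cultured cells were 3 plates each of scr and sh4. A single shRNA in a single transduced line stood behind all sh4 libraries, so an effect of the knockdown and a property of that line cannot be told apart. The comparison of sh4 with scr asks whether lowering Rnaseh2c, a scaffold subunit of the RNase H2 complex that removes ribonucleotides from DNA, went with a different level of the division program.

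Cells enter mitosis when CDK1, bound to A and B cyclins, is switched on by a CDC25 phosphatase. Polo-like and Aurora kinases then build the spindle, the spindle checkpoint holds back the anaphase-promoting complex (APC/C) until every kinetochore is attached, and the cell is cleaved by an actomyosin ring. Most of these genes are transcribed late in the cell cycle under FOXM1 and the MuvB complexes, so that their summed mRNA is widely used as a readout of the share of dividing cells in a tumor. In a bulk sample fewer dividing cells and less of these mRNAs per dividing cell cannot be told apart.

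Promoter sequences are shown for 4 genes on which the comparison of tumors and cells turns. RefSeq promoter windows, from 250 bases before to 50 bases after the transcription start on GRCm38.p6, were matched by symbol for 31 of the 38 genes. Aurkb, Ccna2, Cdc25c, Foxm1, Incenp, Kif20a and Tpx2 had no window. Both strands of the windows were searched for TTTGAA (or TTCAAA), taken here as the cell cycle genes homology region (CHR) that MuvB complexes bind. They were also searched for CCAAT (or ATTGG), the box bound by NF-Y, and matches that shared bases were both counted. Each window is written 5′ to 3′ on the strand of its gene, with matches in capitals.
Aurka, chr2:172370521-172370820, minus strand: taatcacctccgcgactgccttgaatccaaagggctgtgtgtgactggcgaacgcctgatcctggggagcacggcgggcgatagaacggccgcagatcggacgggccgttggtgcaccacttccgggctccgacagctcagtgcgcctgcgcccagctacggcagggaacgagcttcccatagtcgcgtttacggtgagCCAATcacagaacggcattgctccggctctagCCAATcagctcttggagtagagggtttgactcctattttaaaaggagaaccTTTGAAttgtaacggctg
Plk1, chr7:122159185-122159484, plus strand: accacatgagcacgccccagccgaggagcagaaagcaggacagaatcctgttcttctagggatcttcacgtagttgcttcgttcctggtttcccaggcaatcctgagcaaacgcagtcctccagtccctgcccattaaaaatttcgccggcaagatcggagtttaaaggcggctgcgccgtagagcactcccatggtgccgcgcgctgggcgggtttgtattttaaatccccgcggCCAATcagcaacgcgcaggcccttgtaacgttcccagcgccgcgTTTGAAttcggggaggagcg
Cdk1, chr10:69352863-69353162, minus strand: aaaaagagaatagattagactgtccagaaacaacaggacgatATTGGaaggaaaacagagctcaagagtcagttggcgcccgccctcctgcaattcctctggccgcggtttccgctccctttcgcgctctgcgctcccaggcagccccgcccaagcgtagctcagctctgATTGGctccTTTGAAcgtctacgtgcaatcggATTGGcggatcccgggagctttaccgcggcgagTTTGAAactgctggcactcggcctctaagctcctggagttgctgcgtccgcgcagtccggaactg
Ccnb1, chr13:100786437-100786736, minus strand: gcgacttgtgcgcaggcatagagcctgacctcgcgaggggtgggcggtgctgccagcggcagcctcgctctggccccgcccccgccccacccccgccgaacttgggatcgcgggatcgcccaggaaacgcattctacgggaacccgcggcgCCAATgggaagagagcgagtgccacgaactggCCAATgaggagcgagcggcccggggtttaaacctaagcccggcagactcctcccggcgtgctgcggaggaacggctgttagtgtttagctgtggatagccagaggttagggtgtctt
The windows of Aurka and Plk1 held 1 TTTGAA each, that of Cdk1 held 2, and that of Ccnb1 held none. All 4 held CCAAT in one orientation or the other. The genes had 34 windows, some having more than one start. TTTGAA was in 26 of the 34 (76.5%), against 17.9% of all 32851 windows of the same length, and CCAAT was in 27 of them (79.4%), against 37.4%. Both were in 67.6% of these windows and in 7.0% of all. A match is a stretch of letters and not a measured binding site.

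The target of the shRNA was measured first. In tumors Rnaseh2c was at 26.9, 52.0 and 25.9 RPKM (reads per kilobase of gene, scaled to the mapped reads of the library) in scr replicates 1 to 3 and at 10.2, 22.4 and 19.8 RPKM in sh4 replicates 1 to 3. Every sh4 tumor was below every scr tumor, with a difference of −0.98 on the log2(value + 0.5) scale used for all differences here, which did not pass the test (limma, adjusted p = 0.995). In cells it was at 5.83, 7.06 and 5.34 FPKM (the same measure for sequenced fragments) in scr and at 3.19, 5.36 and 4.28 FPKM in sh4, where the second sh4 culture overlapped the scr cultures (difference −0.48, limma adjusted p = 0.236). Over all genes limma called 0 of 13487 genes in tumors at an adjusted p under 0.05 (0%), with 564 at an unadjusted p under 0.05. In cells it called 270 of 21106 (1.28%), of which 110 were higher and 160 lower in sh4. With median-ratio scaling of the cell libraries the split was 552 higher and 493 lower. The epithelial keratins Krt8 and Krt18 were high in both tables, whereas Epcam and Cdh1, which define epithelium, were between 0.533 and 2.09 RPKM in every tumor and at or near 0 in the cells (at most 0.0228 FPKM). With 3 libraries a group the exact two-sided permutation test cannot go below 0.1 for any single gene. The p-values measure the spread between these libraries.

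In tumors, 34 of the 38 mitotic genes had a lower mean in sh4 than in scr, by a median of −0.26, where the median over all genes tested was −0.04 and 57.4% of all genes were lower. At mean levels of 1 RPKM or more, 60.5% of 10723 genes were lower and 39.5% higher. The 4 mitotic genes that were higher on average were Ccna2, Birc5, Incenp and Mki67, where 42.6% of all genes were higher. None of the 38 was called (0% of all genes; limma, adjusted p from 0.995 to 0.999), and only Aurka had an unadjusted p under 0.05, against 2.02% of all genes in that direction and 2.16% in the other. Every sh4 tumor was below every scr tumor for 9 genes, Ccnb2, Cdk1, Aurka, Nek2, Plk1, Ube2c, Nuf2, Kif2c and Tpx2, a pattern shown by 4.98% of all genes and by 5.42% of those at 1 RPKM or more. For 0 of the 38 was every sh4 tumor above, against 4.19% of all genes and 3.46% of those at 1 RPKM or more. The second sh4 tumor held the lowest value of 29 of the 38 genes, and the mean of the 38, as a deviation from each gene's mean over the 6 tumors, was 0.19, 0.09 and 0.13 in the scr tumors and 0.05, −0.48 and 0.01 in the sh4 tumors. The same tumor was the lowest over all 13487 genes, at a median deviation of −0.16, where the other 5 lay between −0.07 and 0.10. Without that tumor the median difference was −0.10 and 30 genes were lower.

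In cells the direction was the other one. Of the 38 genes, 33 had a higher mean in sh4, by a median of 0.12 (−0.002 over all genes tested, of which 49.6% were higher and 50.4% lower). At 1 FPKM or more, 54.2% of all genes were higher and 45.8% lower. The 5 that were lower on average were Ccnb2, Aurka, Ndc80, Nuf2 and Kif2c. None was called (0.521% of all genes were called higher and 0.758% lower; limma, adjusted p from 0.152 to 0.955). At an unadjusted p under 0.05, 7 were higher (Ccna2, Ccnb1, Ccnf, Plk1, Bub3, Cenpf and Ect2), against 9.55% of all genes, and 1, Aurka, was lower, against 9.33%. Every sh4 culture was above every scr culture for 16 genes, a pattern shown by 13.6% of all genes and by 17.5% of those at 1 FPKM or more. Aurka was the 1 gene with every sh4 culture below, against 13.8% of all genes and 13.7% of those at 1 FPKM or more. The first scr culture held the lowest value of 28 of the 38 genes. The mean deviations were −0.16, −0.02 and −0.001 in the scr cultures and 0.08, 0.06 and 0.04 in the sh4 cultures, and without the first scr culture the median difference was 0.08.

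**Figure D1:**
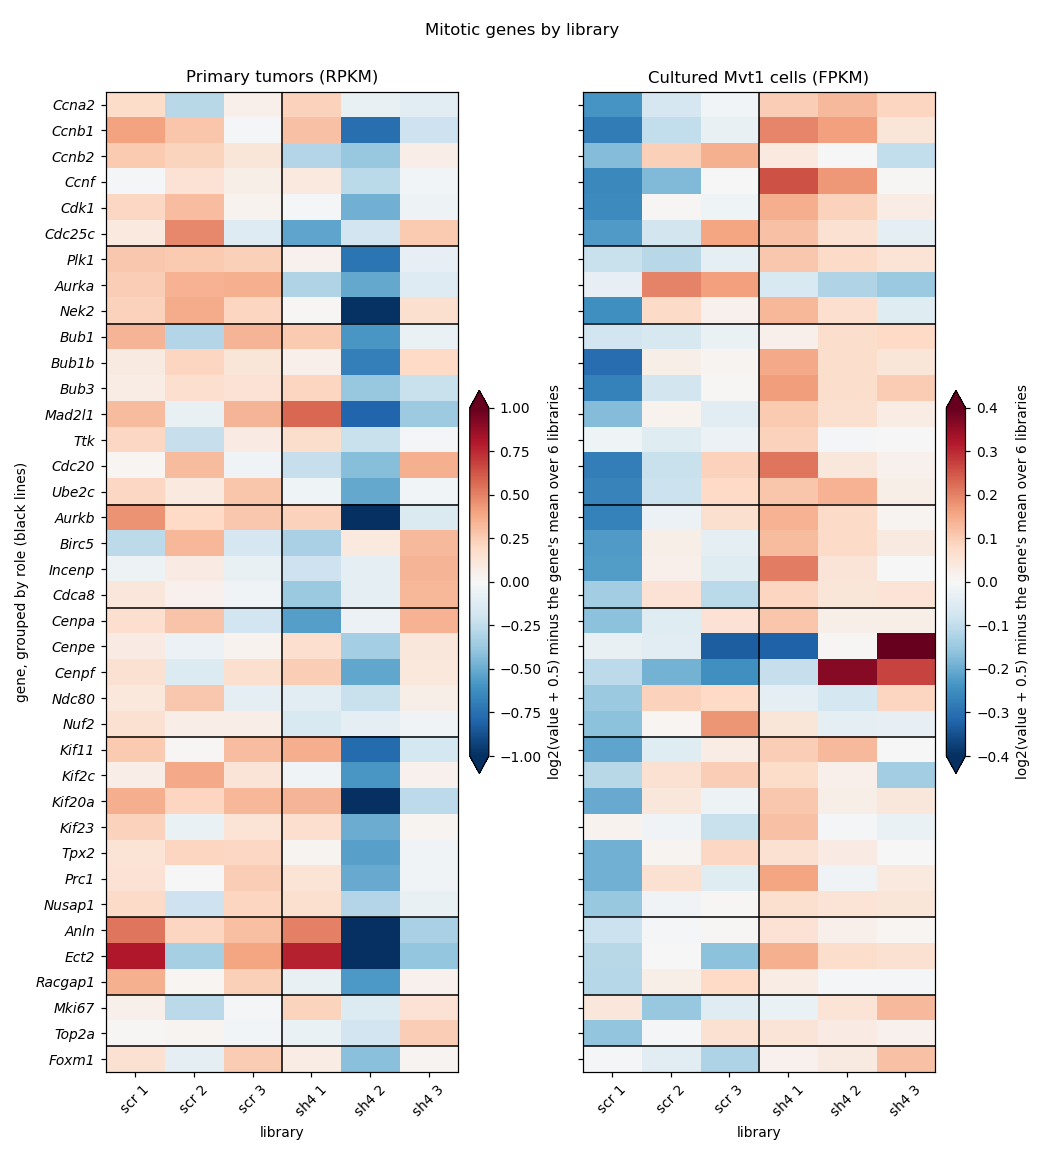
Level of each of the 38 genes in each library, as log2(value + 0.5) minus the gene's mean over the 6 libraries of its table (color, clipped at 1.0 for tumors and 0.4 for cells; red is higher), with black lines between roles. The column of the second sh4 tumor holds the lowest value of 29 genes and that of the first scr culture the lowest of 28.

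The tables were normalized separately and no difference between them was tested. Side by side, 29 genes were lower on average in sh4 tumors and higher in sh4 cells, a pattern shown by 28.1% of the 10835 genes tested in both tables under 1 symbol, 5 were lower in both, 4 were higher in both and 0 were higher in tumors and lower in cells. Aurka was the 1 gene of the 38 whose sh4 libraries lay below all scr libraries in both tables, against 1.36% of those 10835 genes, so that this count is near the background. Cdk1 and Plk1 were below in tumors and above in cells without overlap, against 0.581% of the genes. Of the 38, 9 were below in tumors and 16 above in cells without overlap. The share over all genes does not carry these 2 counts, so it is no measure of a joint pattern. The precision differed: the SE of a difference had a median of 0.23 in tumors and 0.08 in cells, and the highest library exceeded the lowest by a median of 1.74 times in tumors and 1.26 times in cells. Across the 38 genes the levels in scr tumors and scr cells had a Spearman rho of 0.25, a description over genes that share libraries. Mki67 was the highest of the 38 in scr cells (75.3 FPKM) but ranked 21 in scr tumors (9.52 RPKM), and Bub3, at 38.4 RPKM, and Cdk1, at 38.3 RPKM, led in scr tumors.

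**Figure D2:**
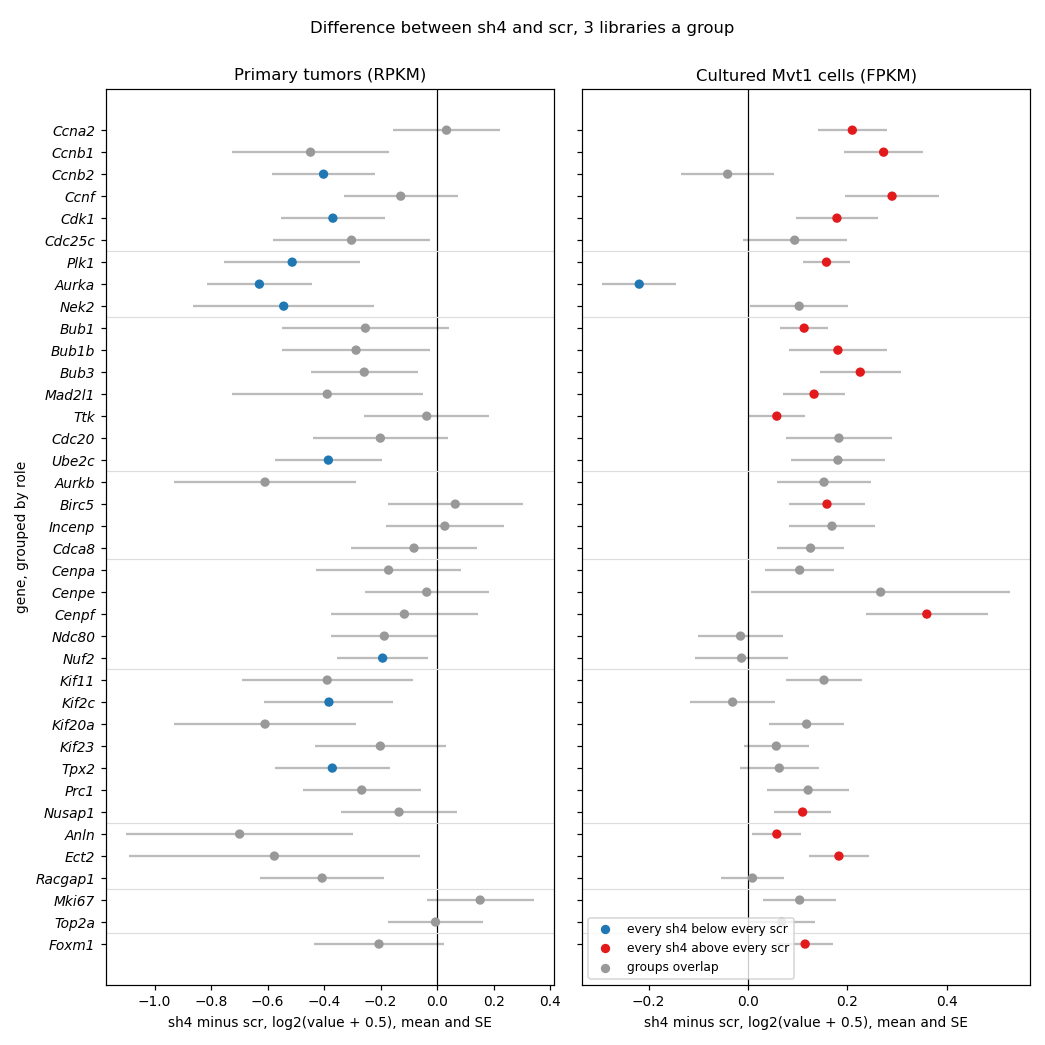
Mean sh4 minus scr difference, in log2(value + 0.5), with its SE (gray bars, limma, 3 libraries a group) in tumors (left) and cells (right). Blue points, 9 in tumors and 1 in cells, mark genes whose sh4 libraries all lay below the scr libraries, and red points, 0 in tumors and 16 in cells, those whose sh4 libraries all lay above.

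Among the mitotic kinases, Aurka had the smallest p of the 38 in tumors. Aurora A matures the centrosomes and starts the spindle. In tumors Aurka (NCBIM37, that is mm9, chr2:172181690-172196035, minus strand) was at 9.08, 9.78 and 9.82 RPKM in scr replicates 1 to 3 and at 6.07, 5.16 and 6.89 RPKM in sh4 replicates 1 to 3. No sh4 tumor reached the lowest scr tumor. The difference was −0.63 (SE 0.19, limma p = 0.00995, adjusted p = 0.995, exact permutation p = 0.1), and the sh4 tumor was lower within each experiment, by −0.55, −0.86 and −0.48 in experiments 1 to 3. In cells Aurka was at 23.1, 27.2 and 26.6 FPKM in scr and at 22.7, 21.7 and 21.3 FPKM in sh4. The groups were again separate, though the first scr culture was close to the sh4 cultures (difference −0.22, SE 0.07, limma adjusted p = 0.193). Its adjusted p was 0.0102 after quantile normalization and 0.0225 with a transcript length index as covariate, and over all alternatives it ran from 0.0102 to 0.41.

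Plk1, the polo-like kinase that activates CDC25 and acts at centrosomes, kinetochores and the midzone, lay on opposite sides in the tables. The gene (chr7:129302951-129313389, plus strand, mm9) was at 8.90, 8.85 and 8.73 RPKM in scr tumors and at 7.53, 4.20 and 6.89 RPKM in sh4 tumors. In cells it was at 20.2, 19.9 and 21.0 FPKM in scr and 23.3, 22.8 and 22.4 FPKM in sh4. The groups were separate in both tables, with differences of −0.51 (SE 0.24) in tumors and 0.16 (SE 0.05) in cells, and limma adjusted p of 0.995 and 0.156. Without the second sh4 tumor the tumor difference was −0.28. Nek2 (chr1:193645323-193656929, plus strand, mm9), a kinase that separates the centrosomes, was at 3.88, 4.33 and 3.83 RPKM in scr tumors and 3.27, 1.38 and 3.67 RPKM in sh4 tumors, where the second sh4 tumor was far below the others. Without that tumor its difference was −0.18 instead of −0.54. In cells its groups overlapped (difference 0.10).

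**Figure D3:**
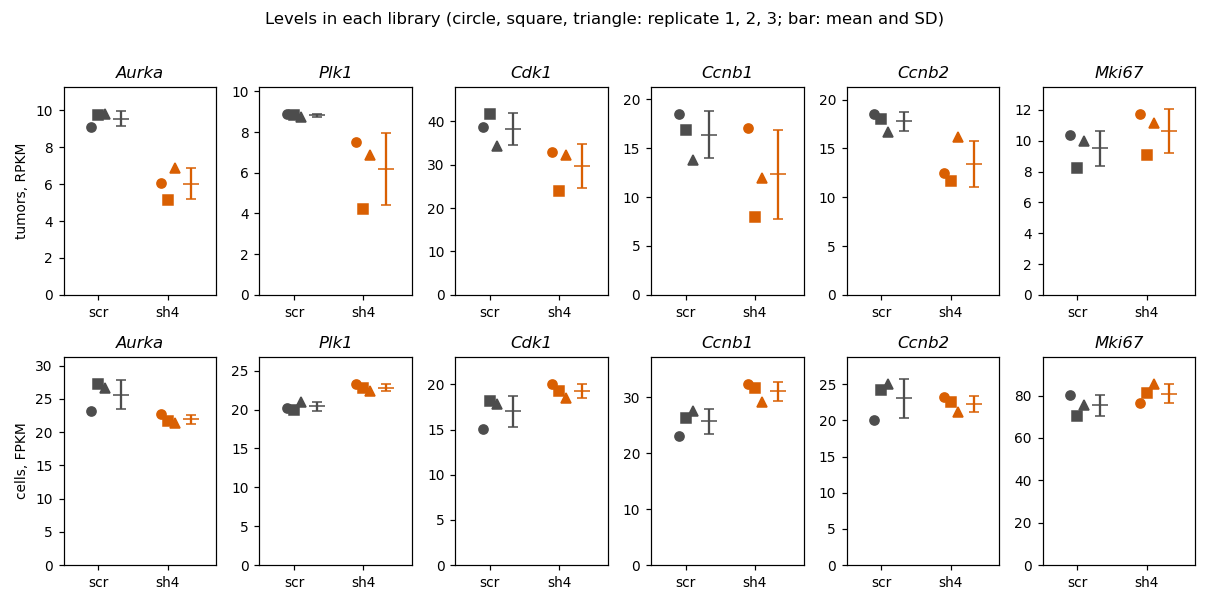
Levels of 6 genes in each library, in RPKM for tumors (top) and FPKM for cells (bottom), with scr in gray and sh4 in orange; bars are the mean and SD of 3 libraries, and axes start at 0. Aurka was lower in all sh4 libraries of both tables, whereas Plk1 and Cdk1 were lower in all sh4 tumors and higher in all sh4 cultures.

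The 4 cyclins, Cdk1 and the phosphatase Cdc25c had a median difference of −0.34 in tumors and 0.19 in cells. Cdk1 (chr10:68799383-68815686, minus strand, mm9), the kinase of mitotic entry, was at 38.8, 41.7 and 34.4 RPKM in scr tumors and 33.1, 23.9 and 32.3 RPKM in sh4 tumors. In cells it was at 15.04, 18.1 and 17.8 FPKM in scr and 20.0, 19.3 and 18.5 FPKM in sh4. The groups were separate both times, at −0.37 in tumors and 0.18 in cells, and at −0.22 without the second sh4 tumor and 0.095 without the first scr culture. Ccnb1 (chr13:101548605-101556525, minus strand, mm9), cyclin B1, the main mitotic partner of CDK1, was at 18.5, 16.9 and 13.7 RPKM in scr tumors and 17.0, 8.00 and 11.9 RPKM in sh4 tumors. The first sh4 tumor lay among the scr tumors, and the difference of −0.45 was −0.18 without the second. In cells Ccnb1 was at 23.1, 26.3 and 27.6 FPKM in scr and 32.3, 31.7 and 29.2 FPKM in sh4, all sh4 cultures being above all scr cultures (0.27, SE 0.08, limma adjusted p = 0.152). It was the second of 2 mitotic genes that passed under an alternative, with an adjusted p of 0.0488 under median-ratio scaling, 0.0334 under quantile normalization and 0.0317 with the length covariate.

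Ccnb2 (chr9:70255496-70269361, minus strand, mm9), the other B-type cyclin here, did not follow Ccnb1 in cells. It was at 20.0, 24.2 and 24.99 FPKM in scr cultures and 23.2, 22.6 and 21.1 FPKM in sh4 cultures, which overlapped (−0.04). In tumors it was at 18.5, 18.0 and 16.7 RPKM in scr and 12.5, 11.7 and 16.1 RPKM in sh4, with every sh4 tumor lower (−0.40). Ccna2, cyclin A2, which acts in S phase and at mitotic entry, differed by 0.03 in tumors, where the groups overlapped, and was at 37.2, 41.8 and 43.5 FPKM in scr and 47.0, 48.1 and 46.6 FPKM in sh4 cultures (0.21, limma adjusted p = 0.186). Exons of Ccna2 and of Exosc9 on the opposite strand share up to 428 bases, and reads of the pair cannot be told apart where strand was not used. Ccnf, an F-box protein of the SCF ubiquitin ligase, was at 11.9, 12.6 and 14.3 FPKM in scr and 17.2, 16.2 and 14.4 FPKM in sh4 cultures, the lowest sh4 culture being just above the highest scr culture (0.29). In tumors it differed by −0.13 with overlap. Cdc25c, the phosphatase that activates CDK1, overlapped in both tables (−0.30 and 0.09).

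All 7 genes of the spindle checkpoint and the APC/C were lower on average in sh4 tumors and higher in sh4 cells, with medians of −0.26 and 0.18, and none was called. Without the second sh4 tumor the tumor median was −0.04. Ube2c, the ubiquitin-conjugating enzyme of the APC/C, was the 1 gene of the group without overlap in tumors, at 22.9, 21.2 and 24.1 RPKM in scr and 19.2, 13.7 and 19.4 RPKM in sh4 (−0.39, and −0.23 without the second sh4 tumor). Its exons share up to 144 bases with Tnnc2 on the opposite strand. In cells it differed by 0.18 with overlap. In cells 5 of the 7 had every sh4 culture above every scr culture, namely the checkpoint kinase Bub1, its relative Bub1b, Bub3, which carries both to kinetochores, Mad2l1, the MAD2 protein that inhibits CDC20, and the kinase Ttk (MPS1), at differences from 0.06 for Ttk to 0.23 for Bub3. This pattern was shown by 13.6% of all genes and by 17.5% of those at 1 FPKM or more. Bub3 was at 8.65, 9.99 and 10.6 FPKM in scr and 11.9, 11.1 and 11.3 FPKM in sh4 cultures. Without the first scr culture the cell differences were 0.074 for Bub1b, 0.148 for Bub3 and 0.08 for Mad2l1. Leaving out single cultures gave 0.101 to 0.131 for Bub1 and 0.026 to 0.075 for Ttk. In tumors these 5 overlapped, with differences from −0.39 for Mad2l1 to −0.04 for Ttk, and that of Mad2l1 was −0.09 without the second sh4 tumor. Cdc20, the activator of the APC/C, overlapped in both tables (−0.20 and 0.18).

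The chromosomal passenger complex was not uniform in tumors. Aurkb, its kinase, was at 7.31, 6.07 and 6.40 RPKM in scr and 6.23, 2.36 and 4.67 RPKM in sh4 tumors (−0.61, and −0.26 without the second sh4 tumor). Its 3 partners, Birc5 (survivin), the scaffold Incenp and Cdca8 (borealin), differed by 0.06, 0.03 and −0.08, all with overlap, and each was lower in sh4 in experiments 1 and 2 and higher in experiment 3. In cells all 4 were higher on average, by 0.13 to 0.17. Birc5 was the 1 without overlap, at 17.1, 20.4 and 19.6 FPKM in scr and 21.9, 21.2 and 20.6 FPKM in sh4. Its difference of 0.16 was 0.085 without the first scr culture.

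Of the 5 kinetochore and centromere genes, Nuf2, a subunit of the NDC80 complex that holds the microtubule, was the 1 without overlap in tumors. It was at 10.7, 10.1 and 10.1 RPKM in scr and 8.55, 8.92 and 9.32 RPKM in sh4, a small difference of −0.19 with the narrowest range of the 38 (1.25 times from lowest to highest tumor). Nuf2 and its partner Ndc80 differed by −0.01 and −0.02 in cells, with overlap. Cenpa, the centromeric histone H3 variant, differed by −0.72, −0.34 and 0.54 in experiments 1 to 3 of the tumors, and differed by 0.10 in cells. Cenpf (chr1:191464478-191511965, minus strand, mm9), a large protein of the outer kinetochore, had the largest mean difference of the 38 in cells, at 19.7, 18.5 and 17.8 FPKM in scr and 19.9, 27.4 and 25.7 FPKM in sh4. The first sh4 culture was nearly level with the first scr culture (0.36, SE 0.12, limma adjusted p = 0.196). Cenpe, a kinetochore motor, had the widest range in cells (2.11 times), at 17.3, 17.2 and 14.0 FPKM in scr and 14.0, 17.7 and 29.4 FPKM in sh4, and its difference of 0.27 was −0.026 without the third sh4 culture. In tumors both overlapped (−0.12 and −0.04).

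The 7 genes of spindle motors and spindle assembly were lower on average in sh4 tumors, with a median of −0.37, which was −0.10 without the second sh4 tumor. Kif2c, a kinesin that depolymerizes microtubules at centromeres, was at 8.03, 10.1 and 8.44 RPKM in scr and 7.47, 4.94 and 7.88 RPKM in sh4 (−0.38, and −0.19 without the second). Tpx2, which activates Aurora A on the spindle, was at 12.0, 12.7 and 12.6 RPKM in scr and 11.1, 7.27 and 10.6 RPKM in sh4 (−0.37, and −0.19 without the second). These 2 were the ones without overlap. Kif20a, a kinesin of the central spindle, had a larger difference (−0.61, and −0.26 without the second sh4 tumor) but its first sh4 tumor, at 13.5 RPKM, lay among the scr tumors at 13.7, 12.4 and 13.4 RPKM, and the others were at 5.04 and 8.75 RPKM. Its exons share up to 965 bases with Cdc23 on the opposite strand. Kif11, the motor that pushes the spindle poles apart, Kif23, a subunit of centralspindlin, Prc1, which bundles midzone microtubules, and Nusap1, a microtubule-bundling protein, overlapped, at −0.39, −0.20, −0.27 and −0.14. Without the second sh4 tumor these 4 were at −0.10, −0.003, −0.081 and −0.025. In cells 6 of the 7 were higher on average and Kif2c was lower (−0.03). Nusap1 was the 1 without overlap, at 10.6, 11.7 and 11.8 FPKM in scr and 12.3, 12.3 and 12.2 FPKM in sh4. Its difference of 0.11 was 0.061 without the first scr culture.

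The 3 cytokinesis genes had a median difference of −0.58 in tumors. It was −0.22 without the second sh4 tumor, where the 3 mitotic kinases had a median of −0.28 (−0.54 with it). Anln, anillin, which organizes the cleavage furrow, was at 14.8, 11.7 and 12.4 RPKM in scr and 14.4, 3.97 and 7.92 RPKM in sh4 tumors. The first sh4 tumor was at the scr level and the other 2 were far below, so that the difference was −0.70 with an SE of 0.40, and −0.26 without the second sh4 tumor. Ect2, the exchange factor that activates RhoA at the furrow, had the widest range of the 38, at 5.03, 2.03 and 3.68 RPKM in scr and 4.91, 0.845 and 1.93 RPKM in sh4 (5.96 times from lowest to highest). Without the second sh4 tumor its difference of −0.58 was −0.10. Racgap1, the centralspindlin subunit that binds ECT2, differed by −0.41 with overlap (−0.22 without that tumor). In cells Anln and Ect2 were without overlap and higher, Anln by 0.06 and Ect2 by 0.18, and Racgap1 differed by 0.01. The cell difference of Anln was 0.03 without the first scr culture.

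**Figure D4:**
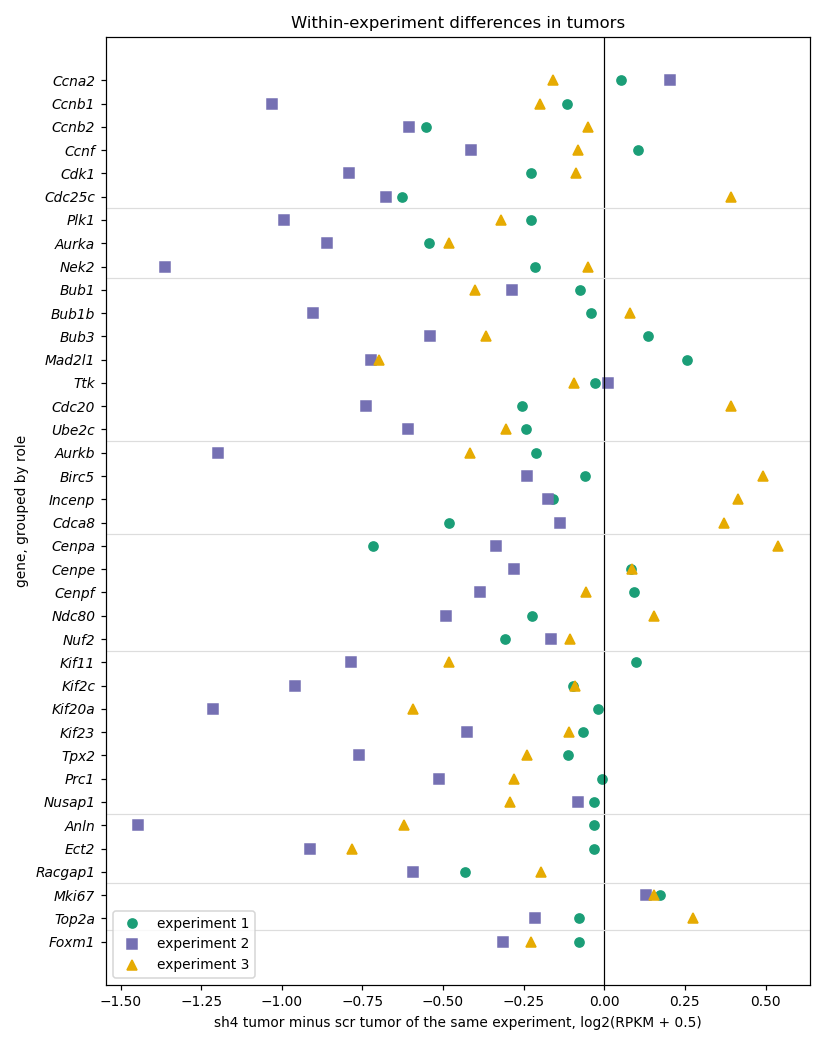
Difference between the sh4 and the scr tumor of the same experiment for each gene, in log2(RPKM + 0.5), with experiments 1, 2 and 3 as circles, squares and triangles. The sh4 tumor was lower for 30, 35 and 27 of the 38 genes, and the square of experiment 2 is the leftmost point for 31 of them, down to −1.45 for Anln.

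Since each experiment gave 1 tumor of each group, the difference was also taken within experiments. The sh4 tumor was lower for 30 of 38 genes in experiment 1, 35 in experiment 2 and 27 in experiment 3, at medians of −0.08, −0.57 and −0.11. Of all genes tested, 42.7%, 57.7% and 58.6% were lower. In all 3 experiments 20 of the 38 were lower, against 15% of all genes, among them Ccnb1, Ccnb2, Cdk1, Plk1, Aurka, Nek2, Ube2c, Aurkb, Anln and Foxm1, and 17 had mixed signs. Mki67 was the 1 gene of the 38 that was higher in all 3, by 0.17, 0.13 and 0.15, against 11.9% of all genes. Mki67 (chr7:142881471-142908062, minus strand, mm9) codes for Ki-67, the chromosome surface protein used to stain dividing cells. It was at 10.4, 8.24 and 9.96 RPKM in scr tumors and 11.7, 9.06 and 11.1 RPKM in sh4 tumors, and at 80.4, 70.2 and 75.4 FPKM in scr and 76.5, 81.0 and 85.4 FPKM in sh4 cultures. The groups overlapped in both tables (0.15 and 0.10). Top2a, the topoisomerase that untangles sister chromatids, differed by −0.006 in tumors and 0.07 in cells. Foxm1, the transcription factor of many of the other 37 genes, was at 3.48, 2.84 and 3.77 RPKM in scr and 3.28, 2.18 and 3.15 RPKM in sh4 tumors (−0.21, and −0.049 without the second sh4 tumor), and in cells every sh4 culture was above every scr culture, at 15.1, 14.7 and 13.8 against 15.3, 15.5 and 16.5 FPKM (0.12).

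As a description of the profile, each gene was set against the mean of the 38 in its own library. Aurka was lower in every sh4 than in every scr library in both tables, by −0.35 in tumors and −0.34 in cells. In tumors Plk1 (−0.24) and Ube2c (−0.11) were also lower on this measure and Mki67 (0.43) and Cenpe (0.24) higher, the other 33 overlapping. In cells Ccna2 (0.09), Ccnb1 (0.15) and Bub3 (0.11) were higher, and with Aurka the genes Ccnb2, Nuf2, Kif2c, Anln, Racgap1 and Top2a were lower, by −0.05 to −0.16. Set against the same mean, 0.704% of all genes were lower without overlap and 15.6% higher in tumors, and 32.9% were lower and 5.56% higher in cells. That mean was itself lower in sh4 tumors and higher in sh4 cells, which shifts all other genes the other way. These shares carry that shift and are no background rate for the counts among the 38. The counts were 3 lower and 2 higher in tumors and 7 lower and 3 higher in cells. Full separation of 3 against 3 libraries has an exact two-sided permutation p of 0.1 for a single gene. Whether these counts exceed those of other genes was thus not tested.

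**Figure D5:**
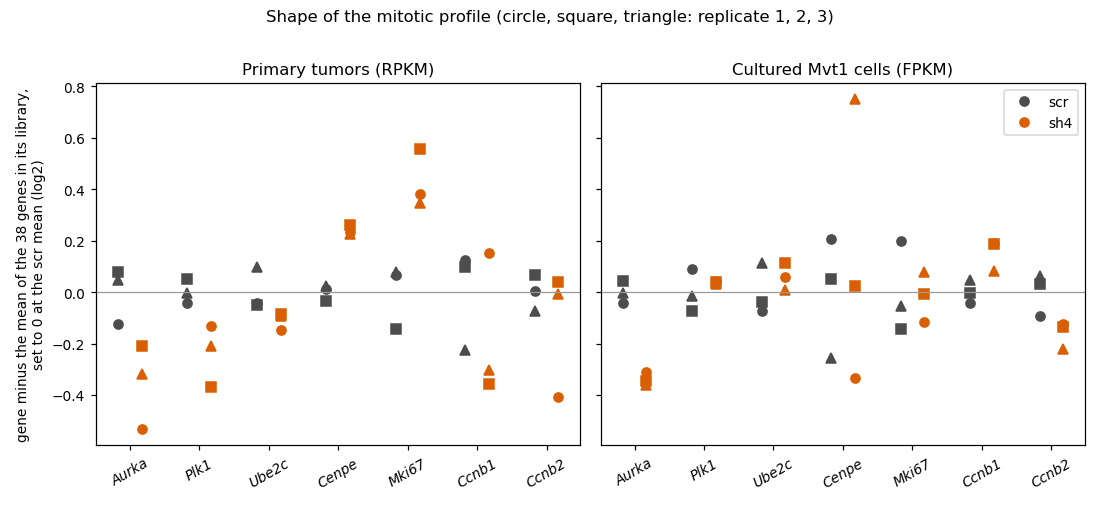
Level of 7 genes relative to the mean of the 38 genes in the same library (log2), set to 0 at the scr mean, with scr in gray and sh4 in orange and replicates 1, 2 and 3 as circle, square and triangle. Aurka lies below the scr points in all 6 sh4 libraries, by −0.35 on average in tumors and −0.34 in cells, and Mki67 lies above them in the 3 sh4 tumors.

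Genes with and without TTTGAA had similar median differences. Other letters of a CHR were not searched for, and whether promoter letters bear on the differences was not tested. The 23 genes with TTTGAA had a median of −0.27 in tumors and 0.12 in cells, and the 8 with a window but without TTTGAA had −0.22 and 0.12. Ccnb1, without TTTGAA, and Cdk1, with 2 copies, were both lower on average in tumors and higher in cells.

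The rest of the machinery was read from lists of other mitotic genes. Of 127 other mitotic genes tested in tumors 100 were lower in sh4, at a median of −0.16, where 57.4% of all genes were lower. Of 130 tested in cells 93 were higher, at a median of 0.06, where 49.6% of all genes were higher. None was called in either, against 0% of all genes in tumors and 1.28% in cells. Over these and the other cell cycle lists below together, the tumor median was −0.164, and −0.036 without the second sh4 tumor. In tumors the smallest p belonged to Troap, a microtubule-associated protein, at 1.85, 1.39 and 2.35 RPKM in scr and 1.22, 0.687 and 1.25 RPKM in sh4 (−0.61, limma adjusted p = 0.995). Without the second sh4 tumor its difference was −0.425. Around mitosis, 15 of 18 S phase genes were lower in sh4 tumors (median −0.25, none called), among them the replication factors Cdc45 (−0.58) and Gins2 (−0.57). Without the second sh4 tumor these 2 were at −0.36 and −0.365. The mean deviation of the 18 was 0.090, 0.185 and 0.065 in scr tumors and 0.058, −0.406 and 0.008 in sh4 tumors. In sh4 cells 17 of 18 were higher (median 0.14). The 1 called in cells, where 0.521% of all genes were called higher, was Rrm2. It codes for the small subunit of ribonucleotide reductase, which makes deoxyribonucleotides. It was at 47.5, 50.9 and 49.0 FPKM in scr and 64.4, 66.2 and 67.1 FPKM in sh4 cultures and rose by 0.42 (limma adjusted p = 0.0311), a call that was lost in 5 of 6 fits without 1 culture (adjusted p from 0.103 to 0.154) and held without the first scr culture. Of 21 genes of MuvB, DREAM and E2F, 18 were lower in sh4 tumors and 14 higher in sh4 cells, and of the G1 cyclins, CDKs and CDK inhibitors 12 of 17 were lower in tumors and 8 of 12 higher in cells. In cells the CDK inhibitor Cdkn1a (p21) differed by 0.37 (limma adjusted p = 0.0673), Ccne2 (cyclin E2) by 0.25 (limma adjusted p = 0.0823) and Cdkn1b (p27) by −0.22 (limma adjusted p = 0.155). Mybl2 (B-MYB), the MuvB partner that acts before FOXM1, differed by 0.30 (limma adjusted p = 0.119). Rbl2, a gene of the same list, differed by −0.24 in cells.

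Other measures of the tumors were set beside the mitotic result, and most of the marker sums overlapped between the groups. All 6 T cell markers tested were higher in sh4 tumors, their sum being 25.3, 19.0 and 29.2 RPKM in scr and 42.1, 66.5 and 51.5 RPKM in sh4 (none called), with the highest sum in the second sh4 tumor, which had the lowest mitotic level. The sum of 7 tumor epithelium markers overlapped, at 585 to 1095 RPKM in scr and 413 to 741 RPKM in sh4. Adipocyte markers ran from 34.4 to 1690 RPKM in scr and from 40.7 to 244 RPKM in sh4, red blood cell markers from 192 to 804 and from 66.2 to 309 RPKM, and skeletal muscle markers from 5.60 to 89.1 and from 5.63 to 36.6 RPKM. All 6 adipocyte markers and all 3 red blood cell markers tested were lower on average in sh4, at medians of −1.12 and −1.16. All 6 endothelial markers were higher on average, at a median of 0.34, though their sums overlapped, at 16.7 to 22.2 RPKM in scr and 19.8 to 39.0 RPKM in sh4. Macrophage and fibroblast sums overlapped too, with 3 of 7 markers higher in each. Genes with transcripts under 1000 bases stood against those over 4000 bases at −0.18, 0.27 and −0.20 in scr and −0.32, 0.35 and 0.05 in sh4 tumors, highest in the second sh4 tumor. The shorter 19 of the 38 genes had a median difference of −0.30 and the longer 19 of −0.21. Length here was the median over a gene's annotated coding transcripts in GENCODE vM1, whichever of them were expressed. It set Racgap1 at 768 and Cenpf at 3001 bases, so the split by length is a rough one. In cells the T cell markers were at most 0.133 FPKM in sum, with Cd3e, Cd3d and Cd3g at 0. The part of these measures in the lower mitotic level of sh4 tumors was not tested.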

How the data were processed

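The 38 genes, the other gene lists and the tests were chosen with earlier results of these data known. Tumor libraries (mRNA) were trimmed with Trimmomatic and aligned by the authors with Tophat, using the mm9 genome and transcripts of Ensembl v70. The values deposited for them are RPKM, 1 column per tumor. For the cell libraries (total RNA) the authors deposited FPKM values for Ensembl genes and for 239874 loci assembled from the reads, which were left out here. STAR 2.7 and TopHat2 2.1.0 are listed in the submitters' processing notes, and the counting program and its use of strand are not given in the sources used here. Neither table holds counts, so the absolute depth is unknown. From the steps between low values, 1 read was worth the same in all tumors (relative depth 0.998 to 1.00 of the first scr tumor), while the other cell libraries had 0.796 to 1.51 times the depth of the first scr culture. RPKM and FPKM are shares of a library, so a few very abundant genes lower all others.

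Values were tested as log2(value + 0.5) with limma 3.58.1 (R 4.3.3, variance trend) over genes with a mean of at least 0.1, sh4 minus scr, separately for the tables, with Benjamini-Hochberg adjustment over all genes tested. A fold change on this scale understates that of low genes. The fits were tested on simulated data. Alternatives were other pseudocounts and filters on low values, quantile and median-ratio scaling, no variance trend, the replicate block, leaving out each library and, chosen after seeing the data, a transcript length index as covariate. Tumor replicate numbers mark shared experiments. The deviations of same-numbered tumors correlated at 0.138, 0.33 and −0.117, and those of differently numbered tumors at −0.298 to 0.293. Every one of the 38 genes and Rnaseh2c were named. Of each other list, the genes called or else the 3 with the smallest p, and the 2 most abundant, were picked for follow-up. Only some of these are given here, so the genes named from the other lists are a selection. Exons were compared with GENCODE vM1 (mm9) for overlaps, found for 9 of the 38 genes. Patterns across both tables were set against the 10835 genes tested in both and held under 1 symbol in each. Exome data of metastases were not used here.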

Additional observations from a re-analysis of the deposited data

Results flagged for a closer look

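Cdk1 and Plk1 are given here because their libraries separated in opposite directions in tumors and cells, as did those of 0.581% of the 10835 genes tested in both tables. Since 9 of the 38 separated lower in tumors and 16 higher in cells, that share is no measure of a joint pattern. Cdk1 differed between sh4 and scr by −0.369 in tumors, where all 3 sh4 tumors were below all 3 scr tumors, and by 0.179 in cells, where all 3 sh4 cultures were above. Plk1 differed by −0.513 in tumors and by 0.158 in cells in the same way. Without the second sh4 tumor the tumor differences were −0.222 for Cdk1 and −0.276 for Plk1. The difference between tumors and cells was not tested, since the tables were normalized separately.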

How the results depend on the processing

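In tumors 0 mitotic genes were called under every alternative run and their median difference stayed below 0, the median running from −0.371 to −0.099 with 30 to 36 genes lower when each tumor was left out in turn, and from −0.277 to −0.196 otherwise. Tumor calls stayed at 0 throughout. With the experiment as a replicate block there were 0 calls among the 38 and over all tumor genes, and the block changed no tumor call. For cells, the labels do not say whether plates of the same number were handled together. Deviations of same-numbered plates correlated at −0.061, −0.075 and −0.073. The replicate block left 0 of the 270 cell calls and 0 in the other lists, Rrm2 having an adjusted p of 0.256 (limma). Cell calls over all genes were 77 without a filter on low values, 408 at a mean of at least 1, 1223 after quantile normalization, 1045 under median-ratio scaling, 171 without the variance trend, 1306 with a transcript length index as covariate (chosen after seeing the data) and 2 to 248 when each culture was left out in turn. Of the 38 genes, 2 were called in cells after quantile normalization, 1 under median-ratio scaling and 2 with the length covariate, 0 when any culture was left out. The number lower in sh4 cells was 8 after quantile normalization and 1 to 7 without single cultures, and the median ran from 0.079 to 0.167. Calls in the other lists were 2 at a mean of at least 1, 8, 6 and 10 under quantile normalization, median-ratio scaling and the length covariate, and 0 to 1 without single cultures. The causes of these shifts were not tested.

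These differences turned sign, most of them near 0 but also Cenpe in cells (0.267 over all cultures) and Cenpa in tumors (−0.172). In tumors quantile normalization gave 0.044 for Ttk, 0.044 for Cenpe and 0.046 for Top2a, median-ratio scaling 0.015, 0.014 and 0.053, and the length covariate 0.005 for Ttk. Leaving out single tumors gave ranges of −0.164 to 0.065 for Ttk, −0.082 to 0.247 for Birc5, −0.097 to 0.131 for Ccna2, −0.133 to 0.088 for Top2a, −0.139 to 0.137 for Incenp, −0.271 to 0.081 for Cdca8, −0.387 to 0.059 for Cenpa, −0.131 to 0.124 for Cenpe and −0.266 to 0.116 for Cenpf. In cells quantile normalization gave −0.027 for Anln, −0.032 for Racgap1 and −0.013 for Top2a, and the length covariate −0.03 for Racgap1. Leaving out single cultures gave −0.016 to 0.121 for Tpx2, −0.047 to 0.05 for Racgap1, −0.093 to 0.027 for Ndc80, −0.139 to 0.019 for Ccnb2, −0.098 to 0.071 for Nuf2, −0.094 to 0.032 for Kif2c and −0.026 to 0.496 for Cenpe. The SE of the 38 tumor differences had a median of 0.226, against a median difference of −0.262, and the depth behind the values is unknown.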
